A study of Mus musculus with 48 samples.

Results

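The genes described here are 37 interferon response genes, whose transcription interferons raise in most mouse cells. They were chosen by gene symbol from the table of counts, and all 37 were among its 15569 genes. Endothelial cells were sorted from mice and their RNA sequenced in 10 groups, a TdTomato+ and a TdTomato- fraction from each of 5 combinations of tissue and age. All mice carried Abcg2CreERT, a tamoxifen-activated Cre recombinase expressed from Abcg2, and the ROSATdTomato reporter, and all had received 50 mg/kg tamoxifen 24 h before collection. Cells with CD31 and without CD45 and Ter119 were sorted, so a TdTomato+ cell is a CD31+ cell in which Abcg2-driven Cre had cut the reporter. The submitters name the TdTomato+ cells vascular endothelial stem cells (VESC) and the TdTomato- cells mature endothelial cells. The combinations were P1 heart (postnatal day 1, 4 pairs used), P1 lung (5 pairs), P6 muscle (postnatal day 6, 5 pairs), 6W heart (6 weeks, 5 pairs) and 6W muscle (4 pairs). P1 heart pair 1 was left out because the labels record that its TdTomato+ library failed quality control. The 6W heart pairs 5 and 6 carry muscle as their tissue tag and heart in their title and source name, and were kept as heart. With 24 h of labelling, TdTomato marks cells that had expressed Abcg2, and how completely it marks them is not stated in the labels.

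Type I interferons signal through the receptor Ifnar1/Ifnar2 and the kinases Jak1 and Tyk2, and the transcription factor complex ISGF3, of which Stat2 and Irf9 are subunits, then binds the interferon-stimulated response element (ISRE). Interferon gamma acts through its own receptor on genes that carry the gamma-activated site (GAS). The genes that follow encode antiviral enzymes, RNA sensors, transcription factors that sustain the response and parts of the antigen presentation machinery, and endothelial cells are known to express many of them without infection.

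The sequences below show interferon-related elements that some of these genes carry near their starts. RefSeq promoters on GRCm38.p6, the 250 bases before and 50 after a gene's start, were matched by symbol for 28 of the 37 members. Oas2, Mx1, Mx2, Usp18, Dhx58, Rtp4, Parp9, Parp14 and Zbp1 had no entry. The ISRE core, GAAA followed by any 2 bases and a second GAAA, was searched on both strands, and overlapping matches were allowed. It was present in a promoter of 13 of the 28 members, of 3.99% of all 27025 genes, and in 3.44% of all 32851 promoters. The GAS pattern TTCNNNGAA, whose reverse complement is the same pattern, was present for 9 of the 28 members, for 9.55% of all genes, and in 8.30% of all promoters. Irf7, Irf9, Oasl2, Psmb9, Cmpk2, Xaf1, Dtx3l, Ifi44, Lgals3bp and Trim25 held neither pattern. A match is a description of the letters and not evidence of binding. The windows that follow hold the ISRE core, or its reverse complement, with 8 bases on either side, for members on which later paragraphs turn. Capitals mark the core, and touching or overlapping cores run together. Each is written 5′ to 3′ on the strand of its gene. The Isg15 window (chr4:156200867-156200904, minus strand) holds 3 overlapping cores, and the Oas1a (chr5:120907522-120907553, minus strand) and Bst2 (chr8:71537579-71537610, minus strand) windows hold 2. The Rsad2 window (chr12:26456555-26456580, minus strand), both Ifit1 windows (chr19:34640777-34640802 and chr19:34640796-34640821, plus strand) and both Ifit3 windows (chr19:34583365-34583390 and chr19:34583399-34583424, plus strand) hold 1 each.
Isg15: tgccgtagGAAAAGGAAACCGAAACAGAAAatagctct
Oas1a: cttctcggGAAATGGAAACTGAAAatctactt
Bst2: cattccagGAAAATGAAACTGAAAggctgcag
Rsad2: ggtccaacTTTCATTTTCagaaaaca
Ifit1 first window: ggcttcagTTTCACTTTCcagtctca
Ifit1 second window: agtctcagTTTCAGTTTCtcactgct
Ifit3 first window: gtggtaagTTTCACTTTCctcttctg
Ifit3 second window: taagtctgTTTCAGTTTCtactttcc

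The 250 bases before the start are shown for 3 members that differed between the fractions and with age, with the matching letters in capitals. Rsad2 (chr12:26456453-26456702, minus strand) has 1 ISRE core and no GAS match. Irf1 (chr11:53769764-53770013, plus strand, the first of its 2 RefSeq starts) and Psmb8 (chr17:34197945-34198194, plus strand) have 1 GAS match each and no ISRE core. Neither pattern was found for Irf7, another member that differed in both ways.
Rsad2 upstream: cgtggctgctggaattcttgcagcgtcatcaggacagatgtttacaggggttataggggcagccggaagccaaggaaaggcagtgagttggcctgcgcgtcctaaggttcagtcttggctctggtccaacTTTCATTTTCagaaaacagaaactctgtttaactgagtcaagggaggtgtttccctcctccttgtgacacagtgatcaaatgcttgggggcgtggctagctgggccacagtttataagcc
Irf1 upstream: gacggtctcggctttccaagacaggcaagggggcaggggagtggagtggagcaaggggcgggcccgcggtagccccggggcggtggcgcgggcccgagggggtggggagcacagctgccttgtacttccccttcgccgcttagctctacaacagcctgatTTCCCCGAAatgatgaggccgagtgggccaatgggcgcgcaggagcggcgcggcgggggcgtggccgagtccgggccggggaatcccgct
Psmb8 upstream: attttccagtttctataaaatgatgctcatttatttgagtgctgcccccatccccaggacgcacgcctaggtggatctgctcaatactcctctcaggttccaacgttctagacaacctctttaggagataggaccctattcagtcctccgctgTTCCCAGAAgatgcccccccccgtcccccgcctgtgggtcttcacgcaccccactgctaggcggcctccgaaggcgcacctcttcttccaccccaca

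Total counts of the 46 libraries used ran from 17512843 to 27622937, so that 3 counts, the most that a count of 0 allows, correspond to 0.109 to 0.171 CPM, a count divided by the library's depth. The endothelial markers Pecam1 (982 to 4183 CPM) and Cdh5 (578 to 1527 CPM) were high in every library, and Ptprc, which encodes the leukocyte protein CD45, did not exceed 10.7 CPM. Levels are CPM after TMM scaling, a correction for library composition, given for each library in the order of pair numbers. Folds and adjusted p-values come from quasi-likelihood fits in edgeR that cover all genes, and a gene is said to have risen, fallen or been called where the Benjamini-Hochberg adjusted p was below 0.05. Whether a replicate is 1 mouse or several is not stated in the labels, so the p-values speak only to the spread among these libraries, part of which may be technical.

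The mean log2 CPM of the 37 members separated the ages without overlap in both fractions. It was 4.64 ± 0.56 (SD, n = 4) in TdTomato- and 4.75 ± 0.62 (n = 4) in TdTomato+ cells of P1 heart, and 4.91 ± 0.32 and 4.79 ± 0.34 (n = 5 each) in P1 lung. It was 4.68 ± 0.07 and 4.91 ± 0.05 (n = 5 each) in P6 muscle. In adult tissue it was 6.41 ± 0.14 and 6.29 ± 0.20 (n = 5 each) in heart and 6.62 ± 0.22 and 6.41 ± 0.27 (n = 4 each) in muscle. All 18 libraries of 6-week tissue lay between 6.06 and 6.87 and all 28 neonatal ones between 4.14 and 5.45. P1 heart was the most variable: its pair 2 stood at 5.29 and 5.45 and pair 3 at 4.22 and 4.14, so the spread between pairs there was larger than the largest difference within a pair, 0.18.

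**Figure D1:**
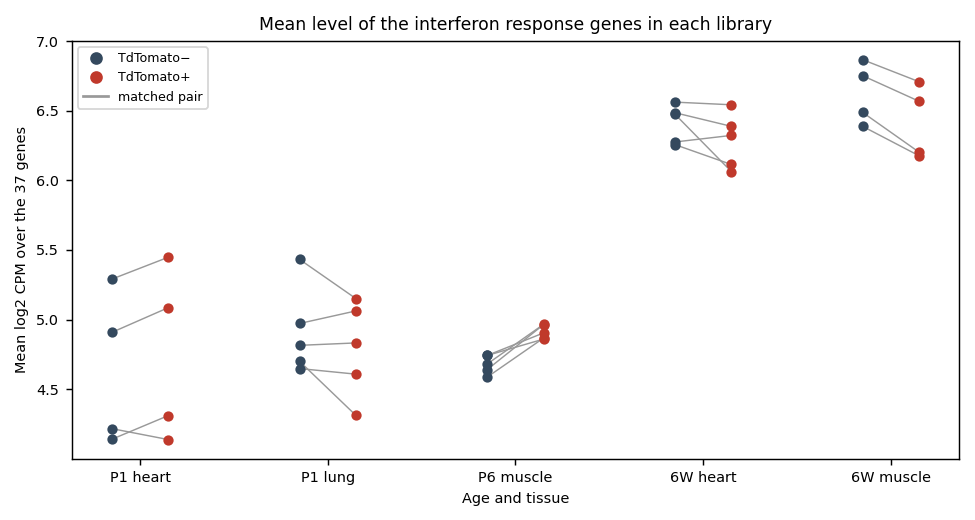
Mean log2 CPM over the 37 interferon response genes (vertical axis) in each of 46 libraries, by tissue, age and fraction, with lines joining the 2 libraries of a matched pair. The 6-week libraries lie between 6.06 and 6.87 and the neonatal ones between 4.14 and 5.45.

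Among members, levels per kilobase of gene length were led in every group by Bst2, which encodes tetherin, a membrane protein that holds budding virions on the cell surface. Its mean level was 226 to 611 CPM per kilobase over the 10 groups. In the 4 adult groups Psmb8 and Psmb9, catalytic subunits of the immunoproteasome, ranked next in that order, followed by Irf1. In P1 heart the rank after Bst2 was held by Lgals3bp, a secreted glycoprotein that binds galectins. At the other end, Mx1, a dynamin-like antiviral GTPase, was at 0 in most libraries and never above 1.98 CPM, so no fold is given for it and the tests within a fraction left it out.

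**Figure D2:**
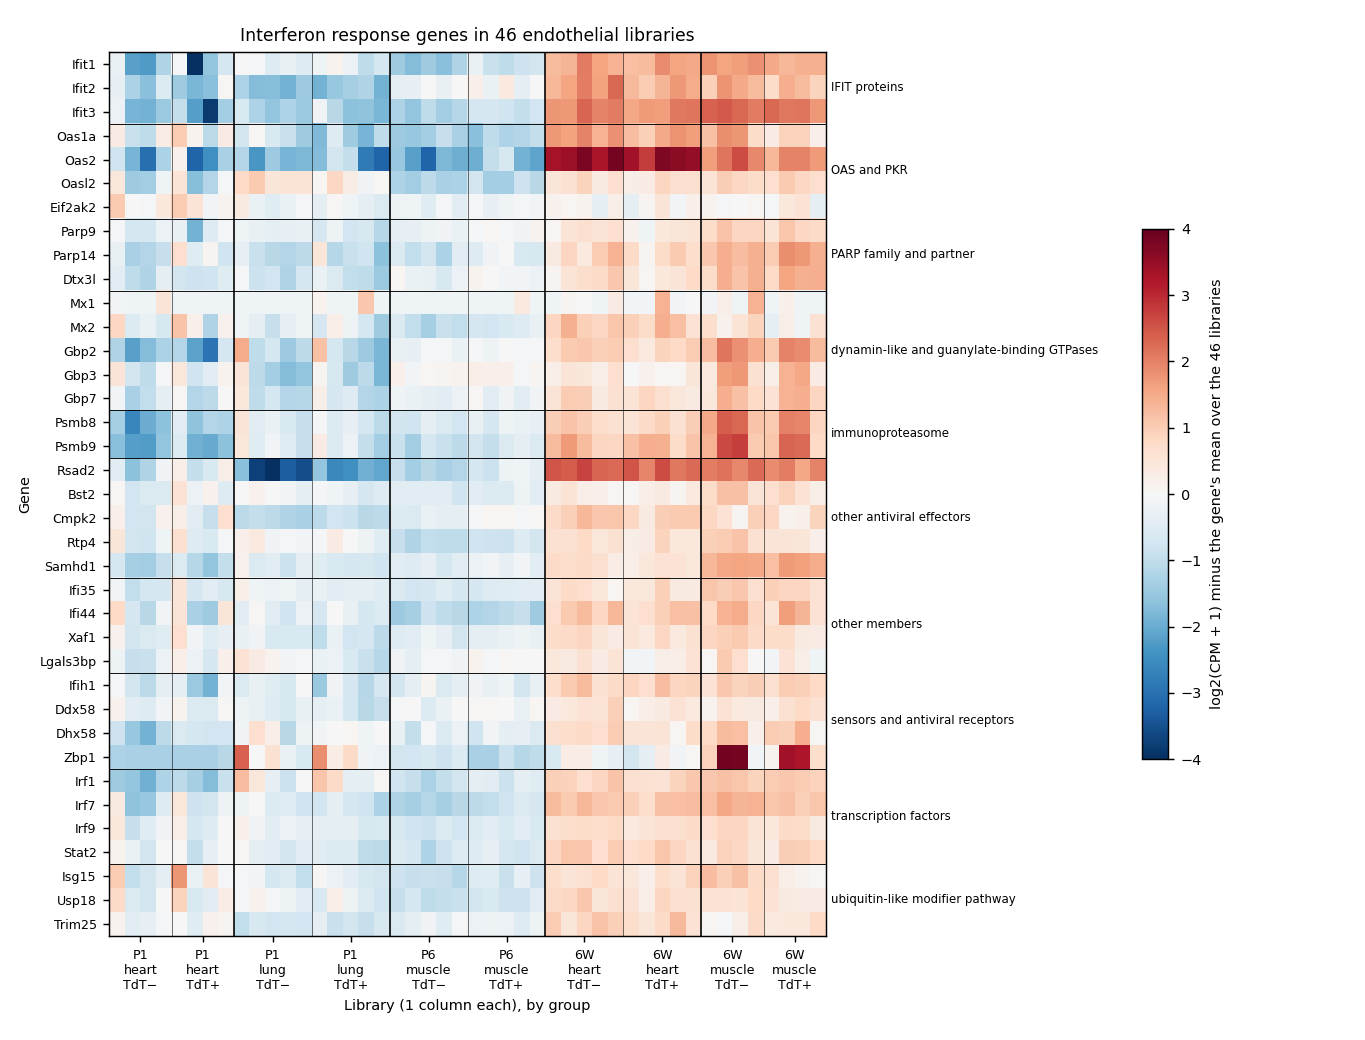
Log2(CPM + 1) of each of the 37 members (rows, ordered by role) in each of 46 libraries (columns, ordered by tissue, age and fraction), shown relative to the member's mean. The columns of 6W heart and 6W muscle are above the mean for most rows.

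The comparison of ages within a fraction asks how endothelial cells of the same organ and sort differ between the newborn and the 6-week mouse. In TdTomato- heart cells 34 of the 36 members tested rose from P1 to 6W and none fell, where 24% of all 14802 genes tested rose. In TdTomato+ heart cells 28 of 36 rose (21.6% of all 14966 genes), in TdTomato- muscle cells 35 of 36 rose from P6 to 6W (21%), and in TdTomato+ muscle cells 32 of 36 rose (16.3%). None fell in any of the 4. The median log2 fold change of the members was 1.31, 1.07, 1.70 and 1.36 in that order, where the median of all genes lay between -0.01 and 0.03. The groups did not overlap for 28, 20, 36 and 32 members, all higher at 6W, against 18.9%, 15.2%, 17.6% and 18.6% of all genes. The TdTomato+ heart count was 13 with P1 heart pair 1 included and 18 with a block by replicate number. The same 27 members rose in all 4 comparisons. The share of all genes that did so was not computed, and it cannot exceed the 16.3% of TdTomato+ muscle. In sorted bulk RNA, more cells with the response and more RNA per cell cannot be told apart.

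Among the transcription factors, Irf1, which is induced by interferon gamma and acts on MHC genes, stood at 106, 97.7, 74.7 and 120.0 CPM in TdTomato- cells of P1 heart and at 548, 535, 457, 517 and 628 CPM in 6W heart. Every adult library was above every newborn one, a 5.38-fold rise (log2 fold change 2.43 ± 0.27 (SE), adjusted p = 1.13e-07). In muscle it went from 165, 150.0, 118, 147 and 171 CPM to 605, 645, 621 and 528 CPM (4-fold, adjusted p = 1.2e-06). Irf7, the factor that amplifies type I interferon production, rose 3.39-fold in heart and 6.25-fold in muscle TdTomato- cells (adjusted p = 1.11e-05 and 4.54e-08). The ISGF3 subunits rose less: Irf9 by 1.88-fold and 2.79-fold and Stat2 by 2.21-fold and 2.7-fold in the same comparisons. All 4 factors rose in TdTomato+ cells as well, by 1.75-fold (Irf9) to 4-fold (Irf1) in heart and 2.2-fold (Irf9) to 3.75-fold (Irf7) in muscle.

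The OAS enzymes make 2'-5' oligoadenylate, which activates RNase L, and among them Oas2 had the largest fold with age. Oas2 was at 4.26, 1.55, 0.13 and 2.78 CPM in P1 heart TdTomato- cells and at 91, 96.2, 125, 86.9 and 129.6 CPM in 6W heart. In TdTomato+ cells it went from 9.37, 0, 0.672 and 2.71 CPM to 93.2, 63.1, 122, 110.2 and 104 CPM. The lowest adult library was above the highest newborn one by a wide margin in both, and absence of overlap was a condition for naming Oas2. The log2 fold changes were 5.59 ± 0.59 (SE, adjusted p = 3.75e-08) and 4.99 ± 0.93 (adjusted p = 0.000157). Muscle gave 2.2, 1.02, 0, 1.62 and 1.38 CPM at P6 and 28.5, 39.8, 54.9 and 33.7 CPM at 6W in TdTomato- cells, and 1.35, 3.78, 4.84, 1.48 and 1.12 CPM against 22.104, 35, 35.4 and 29.07 CPM in TdTomato+ cells (log2 fold changes 4.99 ± 0.55 and 3.59 ± 0.82, adjusted p = 1.43e-07 and 0.00161). Oas1a rose 4.02-fold and 8.05-fold in TdTomato- heart and muscle, though near-identical Oas1 copies may share its reads. Oasl2 rose 2.05-fold and 4.19-fold. Eif2ak2, the RNA-activated kinase PKR, was not called at any age comparison, with 31.3, 29.5, 30.4, 20.8 and 32.7 CPM in 6W heart against 58.9, 27.9, 26.7 and 37.3 CPM in P1 heart TdTomato- cells, and it was the single tested member not called in any of the 4.

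The IFIT proteins bind viral RNA and translation factors, and Ifit1, Ifit2 and Ifit3 lie together on chromosome 19, with 6995 bases between Ifit2 and Ifit3. Ifit3, whose reads may be shared with a near-identical copy, went from 18.4, 5.32, 5.17 and 7.15 CPM to 76.2, 75.7, 114, 90.3 and 95.4 CPM in TdTomato- heart cells (10.0-fold, log2 fold change 3.33 ± 0.31 (SE), adjusted p = 4.39e-09). It went from 8.65, 6.59, 10.3, 7.65 and 9.39 CPM to 117, 124, 113 and 95.4 CPM in TdTomato- muscle cells (13.2-fold, adjusted p = 7.64e-10). Its newborn and adult values did not overlap in either tissue or fraction, which was a condition for naming it. The TdTomato+ folds were 14.07 in heart and 7.7 in muscle. Ifit1 went from 24.3, 5.69, 5.21 and 12.12 CPM to 71.6, 75.8, 126, 88.8 and 78.5 CPM in TdTomato- heart cells and from 10.13, 8.15, 10.2, 8.54 and 12.2 CPM to 103, 89.7, 94.9 and 106 CPM in muscle (7.43-fold and 10.0-fold, adjusted p = 8.08e-08 and 9.87e-09). Its TdTomato+ library of P1 heart pair 3 was near 0, at 0.0422 CPM, beside 5.69 CPM in the partner. The third gene, Ifit2, went from 26.7, 13.4, 10.0 and 22.8 CPM to 86.4, 102, 143, 105 and 171 CPM in TdTomato- heart cells. It rose 6.66-fold there and 3.13-fold in TdTomato- muscle cells (adjusted p = 8.89e-09 and 7.04e-06). Of the ubiquitin-like pathway, Isg15 itself, a modifier conjugated to newly made proteins, went from 57.4, 13.6, 16.5 and 21.7 CPM to 46.4, 40.2, 43.4, 49.1 and 41.4 CPM in TdTomato- heart cells, where the groups overlapped (1.61-fold, adjusted p = 0.0479). That call was lost in 8 of 9 fits that left out 1 library, with log2 fold changes of 0.47 to 1.35, and was kept only without P1 heart pair 2, the high newborn library. In TdTomato+ heart cells it was not called (-0.13 ± 0.30, adjusted p = 0.753), and in muscle it rose 4.16-fold and 1.9-fold in the TdTomato- and TdTomato+ cells.

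Rsad2, which encodes viperin, an enzyme that makes a chain-terminating nucleotide, rose in both tissues and both fractions. In TdTomato- cells it went from 64.9, 27.2, 37.1 and 78.1 CPM in P1 heart to 502, 467, 572, 439 and 422 CPM in 6W heart (9.26-fold, log2 fold change 3.21 ± 0.39 (SE), adjusted p = 3.79e-07). In muscle it went from 45.8, 32.9, 39.2, 34.7 and 37.6 CPM to 361, 397, 335 and 422 CPM (9.97-fold, adjusted p = 1.59e-07). The TdTomato+ folds were 5.7 and 5.03, and the ages did not overlap in any of the 4, which was a condition for naming Rsad2. Its neighbour Cmpk2, a mitochondrial nucleotide kinase on the opposite strand 12763 bases away, rose 2.43-fold in TdTomato- heart and 2.13-fold in muscle cells (adjusted p = 5.57e-06 and 4.08e-05). Samhd1, which degrades deoxynucleotides, rose 3.3-fold and 3.98-fold in those comparisons. For Bst2 the folds were 1.67 and 2.71 in TdTomato- cells, and in TdTomato+ heart cells it was not called (0.18 ± 0.17, adjusted p = 0.436).

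The immunoproteasome, which cuts peptides for MHC class I, rose in both tissues and both fractions. Psmb8 and Psmb9 are neighbours in the MHC region of chromosome 17, 10865 bases apart. In TdTomato- heart cells Psmb9 went from 18.4, 12.2, 12 and 19.6 CPM to 147, 199, 146, 111 and 108 CPM (9.14-fold, log2 fold change 3.19 ± 0.34 (SE), adjusted p = 4.87e-08). In TdTomato- muscle cells it went from 31.9, 22.13, 36.9, 32.4 and 28.4 CPM to 161, 381, 417 and 127 CPM (8.95-fold, adjusted p = 3.34e-08). Psmb8 rose 6.63-fold in heart and 6.06-fold in muscle TdTomato- cells, and 3.61-fold and 3.74-fold in TdTomato+ cells. The adult muscle values of both genes fell into 2 levels, and pairs 3 and 4 were above pairs 2 and 5 in both fractions: Psmb8 stood at 450.2, 855, 788 and 349.8 CPM in TdTomato- and 325, 639, 611 and 288 CPM in TdTomato+ cells of pairs 2, 3, 4 and 5.

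Of the sensors, Ifih1 (MDA5), Ddx58 (RIG-I) and Dhx58 (LGP2), which recognise double-stranded RNA, rose in all 4 comparisons, by 1.46-fold (Ddx58 in TdTomato- muscle) to 4.72-fold (Dhx58 in TdTomato- heart). Zbp1, a sensor of Z-form nucleic acid that can start cell death, was called in all 4 as well. It was at 0 in 3 of 4 libraries of each fraction of P1 heart, so no fold is given there, and at 0.601, 2, 2.01, 1.16 and 0.958 CPM in TdTomato- cells of 6W heart. In muscle the TdTomato- values were 0.461, 0.445, 0.58, 0.393 and 0.69 CPM at P6 and 3.65, 34.3, 33.7 and 1.27 CPM at 6W, and the TdTomato+ values were 0, 0, 0.354, 0.12 and 0.223 CPM and 1.7, 23.9, 22.3 and 3.01 CPM. Pairs 3 and 4 were again the high adult pairs. The log2 fold change in TdTomato- muscle was 5.14 ± 0.88 (SE, adjusted p = 5.2e-05), beside 4.99 ± 0.55 for Oas2. The guanylate-binding GTPases Gbp2 and Gbp7, which act on membranes of intracellular pathogens, rose in all 4, Gbp2 by 5.81-fold in TdTomato- heart and 3.77-fold in TdTomato- muscle. Gbp3 passed in muscle only (2.21-fold and 1.81-fold), and in heart its adjusted p was 0.164 and 0.56, a difference between tissues that was not tested.

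Of the remaining members, Ifi44 rose 5.09-fold in TdTomato+ muscle cells, from 13.3, 13.8, 15.3, 16.7 and 11.4 CPM to 48, 105, 85.08 and 49 CPM (adjusted p = 1.53e-05). The antiviral ADP-ribosylation genes Parp9 and Dtx3l, whose products form a complex, rose in all 4 comparisons, by 1.82-fold to 2.82-fold. They lie on opposite strands and overlap, and the labels do not state whether counting used strand, so reads in the overlap cannot be told apart. Xaf1, Rtp4, Ifi35 and Trim25 also rose in all 4. Lgals3bp rose in TdTomato- cells (1.99-fold in heart and 1.58-fold in muscle) and was not called in TdTomato+ cells (log2 fold changes 0.27 ± 0.20 and 0.13 ± 0.20). Parp14, a mono-ADP-ribosyltransferase, Usp18, the protease that removes Isg15, and Mx2, a second Mx GTPase, rose 3.42-fold, 1.73-fold and 2.24-fold in TdTomato- heart cells and were not called in TdTomato+ heart cells (adjusted p = 0.0867, 0.143 and 0.115).

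**Figure D3:**
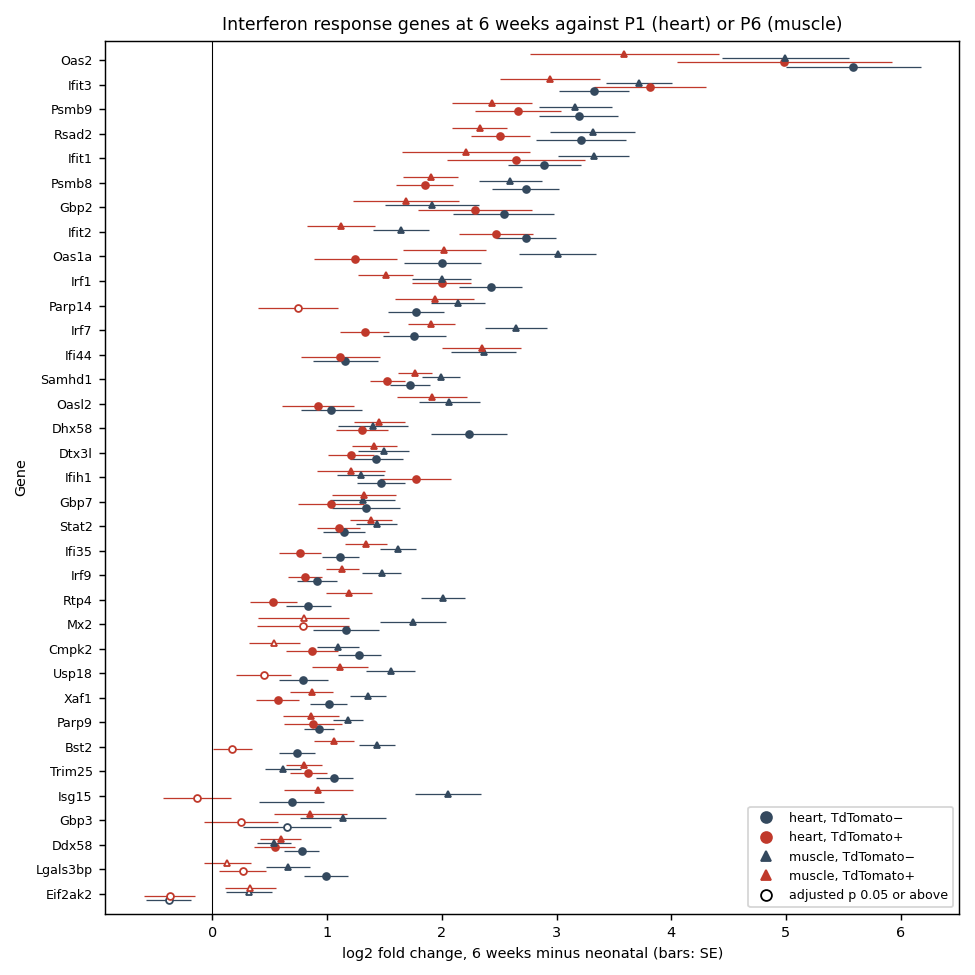
Log2 fold change from newborn to 6-week tissue with its SE (horizontal axis) for 35 members, in heart and muscle and in each fraction, with filled symbols where the adjusted p was below 0.05. Mx1 and Zbp1 are left out because they were near 0 in newborn libraries. All filled symbols lie to the right of 0, with Oas2 farthest out, and all 4 symbols of Eif2ak2 are open.

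The libraries came from 2 sequencing runs. Both ages of heart have libraries in the first. Within that run, which leaves out 6W heart pairs 5 and 6, 33 members rose in TdTomato- and 22 in TdTomato+ heart cells. How many of all genes rose within that run is not given here. All P6 muscle libraries are from the first run and all 6W muscle libraries from the second, so in muscle the run and the age cannot be told apart. Markers of other cell types moved as well. Of 17 leukocyte markers tested, 3 were higher and 1 lower at 6W in TdTomato- heart cells, and 0 higher and 1 lower in TdTomato- muscle cells. Of 15 pan-endothelial markers, 12 were higher in TdTomato- heart and 7 higher and 1 lower in TdTomato- muscle. Of 14 pericyte and fibroblast markers, 5 were higher and 4 lower in TdTomato- heart and 9 higher in TdTomato+ heart. The part of these in the result was not tested.

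The comparison of fractions set TdTomato+ against TdTomato- cells of the same pair, the contrast for which the cells were sorted. In P1 heart 10 members were higher and 1 lower in TdTomato+ cells, 11 of 37 where 14.7% of all genes were called (7.51% higher and 7.21% lower). The 10 were Psmb8, Isg15, Parp14, Rsad2, Irf7, Bst2, Lgals3bp, Psmb9, Ifi35 and Irf1, and the 1 was Ifit3. The median log2 fold change of all 37 was 0.17, beside -0.04 for all genes.

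Psmb8 stood at 62.2, 25.3, 39.6 and 50.5 CPM in the TdTomato- and 115, 51.3, 69.6 and 67.4 CPM in the TdTomato+ libraries of P1 heart pairs 2 to 5. It was higher in 4 of 4 pairs, though the groups overlapped (1.72-fold, log2 fold change 0.78 ± 0.11 (SE), adjusted p = 6.8e-05). Isg15 was at 57.4, 13.6, 16.5 and 21.7 CPM against 96.4, 22.9, 40.6 and 26.4 CPM (1.7-fold, log2 fold change 0.77 ± 0.14 (SE), adjusted p = 0.000867). Pair 2 was highest for both genes in both fractions. Lgals3bp was at 202, 123, 124 and 196 CPM against 277, 198, 144 and 268 CPM (1.37-fold, adjusted p = 0.00258), and Irf7 at 105, 25.7, 27.7 and 56.4 CPM against 111, 44.9, 48.9 and 69.9 CPM (1.41-fold, adjusted p = 0.00635). Both were higher in 4 of 4 pairs. Bst2 was at 255, 144, 163 and 166 CPM against 372, 210.2, 277 and 174 CPM (1.4-fold, adjusted p = 0.00672), and Parp14 at 30.3, 14.8, 16.104 and 19.6 CPM against 60.3, 27, 40.5 and 21.14 CPM (1.78-fold, adjusted p = 0.0187). In both, pair 5 showed the smallest difference. Rsad2, Irf1 and Ifi35 were higher in 4 of 4 pairs and Psmb9 in 3 of 4, by 1.22-fold (Irf1) to 1.51-fold (Rsad2). Ifit3 was lower in 3 of 4 pairs, at 18.4, 5.32, 5.17 and 7.15 CPM against 10.9, 3.96, 0.628 and 7.92 CPM (log2 fold change -0.77 ± 0.26 (SE), adjusted p = 0.0486), and its lowest value is in pair 4.

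Leaving out 1 pair left 3 to 15 members called, and Psmb8, Isg15 and Lgals3bp kept their call without each of the 4 pairs. The count was 5 without pair 2, 4 without pair 3 and 3 without pair 4. It was 0 without the pair block and 7 with pair 1 included, where the values of Irf7 (-0.22), Bst2 (-0.25) and Lgals3bp (-0.27) were reversed. RNA integrity moved with the fraction: the RNA integrity number was 7.5, 7.1, 3.6 and 8.5 in the TdTomato+ and 9.2, 8, 8.4 and 8.5 in the TdTomato- libraries, and with it as a covariate 3 members were called, all higher. Of 14 pericyte and fibroblast markers 7 were lower in TdTomato+ cells, with a median list level of 0.05 against 3.65 log2 CPM. Of 15 pan-endothelial markers 9 were higher and 2 lower, and the 19 leukocyte markers summed to 13.5 to 39.5 CPM against 5.65 to 10.9 CPM. The mean log2 CPM of the leukocyte markers was -2.55, -2.59, -1.75 and -0.97 against -2.56, -2.46, -2.53 and -2.09 in pairs 2 to 5. The part of these marker differences in the result was not tested. The authors' deposited table has 9 members higher and 0 lower at a false discovery rate below 0.05 in P1 heart. It calls 3146 of all 15569 genes there. In the other 4 combinations it calls 0 members. The genes it calls there number 191 in P1 lung, 15 in P6 muscle, 69 in 6W heart and 33 in 6W muscle. With so few calls among all genes, the absence of members there does not set P1 heart apart. The authors' deposited table lists Isg15 at a log2 fold change of 1.94 and Psmb8 at 1.65. The fit used here leaves out pair 1 and takes the pair as a block. Whether the authors' fit did either was not established, so its values may not rest on the same libraries or model. The authors' deposited table calls none of Irf7 (0.07), Bst2 (0.18), Lgals3bp (0.21) and Ifit3 (-0.78), which were called here.

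In P1 lung 5 members were lower and 1 higher in TdTomato+ cells, 6 of 37 where 9.78% of all genes were called (4.9% lower), and the median of all 37 was -0.19. The lower ones were Lgals3bp, Oasl2, Irf7, Irf9 and Oas1a, and the higher one was Rsad2. Lgals3bp was at 350.2, 292, 258, 214 and 223 CPM in the TdTomato- and 191, 196, 152, 123 and 104 CPM in the TdTomato+ libraries of pairs 1, 5, 6, 7 and 8. It was lower in 5 of 5 pairs and the groups did not overlap (1.76-fold lower, log2 fold change -0.82 ± 0.09 (SE), adjusted p = 5.13e-07). Rsad2 was at 26.5, 5.66, 4.11, 7.89 and 6.45 CPM against 28.8, 13.8, 14.9, 22.4 and 19.9 CPM, higher in 5 of 5 pairs (2.36-fold, log2 fold change 1.24 ± 0.17 (SE), adjusted p = 1.69e-05). Pair 1 was highest in both fractions and showed the smallest difference. Oasl2, a ubiquitin-like relative of the OAS enzymes, was at 113, 133, 89.2, 93.7 and 94.8 CPM against 67.2, 114, 78.2, 58.4 and 65.6 CPM (1.39-fold lower, adjusted p = 0.00506), and Irf7 at 71.1, 79.8, 56, 57.5 and 46.2 CPM against 47, 61.5, 49.1, 45.9 and 32.9 CPM (1.31-fold lower, adjusted p = 0.0154). Both were lower in 5 of 5 pairs. Irf9 was at 119.8, 94.8, 78.6, 89.15 and 84 CPM against 82.2, 81, 81.7, 67.4 and 67.8 CPM and Oas1a at 6.59, 12.11, 7.33, 5.85 and 3.7 CPM against 2.78, 7.93, 3.76, 2.52 and 5.26 CPM, each lower in 4 of 5 pairs (log2 fold changes -0.29 ± 0.07 and -0.71 ± 0.22, adjusted p = 0.0121 and 0.0458).

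Leaving out 1 pair gave 3 to 9 calls, the lowest without pair 1, and Lgals3bp, Rsad2 and Oasl2 kept theirs in each case. Without the pair block 1 member was called, and DESeq2 called 12, 1 higher and 11 lower. How many of all genes DESeq2 called is not given here, so its count is not a result about the members. Some markers of other cells moved with the fraction here. The 19 leukocyte markers summed to 1721, 2422 and 3487 CPM in the TdTomato+ libraries of pairs 6, 7 and 8, against 467, 560.4 and 553 CPM in their partners. The sums were 365 against 450 CPM in pair 1 and 103 against 97.2 CPM in pair 5, and none of the 19 was called. Their mean log2 CPM was 1.67, -1.09, 2.14, 2.22 and 1.92 in TdTomato+ libraries. It was 1.96, -0.50, 2.16, 2.31 and 1.34 in TdTomato- libraries, so in pairs 6 and 7 the sums do not show a rise across the list. Of 15 pan-endothelial markers 7 were lower in TdTomato+ cells, and of 9 lung epithelium markers 2 were higher. The RNA integrity number was lower in TdTomato+ libraries in 4 of 5 pairs, at 8.5, 8.9, 8, 8.1 and 7.8 against 9, 8.5, 9.9, 8.7 and 9.1, and with it as a covariate 6 members were called, 1 higher and 5 lower. The part of the other cells in the result was not tested.

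In P6 muscle 3 members were higher in TdTomato+ cells and none lower, where 0.624% of all genes were higher (0.977% called in all), and 34 of the 37 log2 fold changes were above 0 (median 0.19). Irf1 was at 165, 150.0, 118, 147 and 171 CPM in the TdTomato- and 217, 210.3, 155, 221 and 202 CPM in the TdTomato+ libraries of pairs 1 to 5 (1.34-fold, log2 fold change 0.42 ± 0.07 (SE), adjusted p = 0.00237). It was higher in 5 of 5 pairs, with 1 overlapping value in pair 3. Rsad2 was at 45.8, 32.9, 39.2, 34.7 and 37.6 CPM against 52.9, 47.9, 75.3, 76.7 and 66.5 CPM (1.66-fold, log2 fold change 0.73 ± 0.15 (SE), adjusted p = 0.0131). Cmpk2, its neighbour, was at 63.7, 61.4, 77, 70.5 and 71.1 CPM against 87.12, 97.8, 97.5, 90.5 and 94.7 CPM (1.36-fold, log2 fold change 0.45 ± 0.10 (SE), adjusted p = 0.0172). Neither Rsad2 nor Cmpk2 overlapped between fractions. Ifit1 (10.13, 8.15, 10.2, 8.54 and 12.2 CPM against 24, 15.14, 14, 15.9 and 17.2 CPM) did not overlap either but was not called (adjusted p = 0.475), and Irf7 had an adjusted p of 0.0513. Leaving out 1 pair gave 1 to 2 calls (1 without pair 4 and 1 without pair 5), with Irf1 called in each case. The fit without the pair block called 0, and DESeq2 called 6, 5 higher and 1 lower, with its share of all genes not given here. The 19 leukocyte markers summed to 40.1, 143, 134 and 85.3 CPM in the TdTomato+ libraries of pairs 2 to 5, against 22.08, 60.7, 74.1 and 34.7 CPM in their partners, and to 13.06 against 21.09 CPM in pair 1. Pair 1 also had the smallest difference in the mean log2 CPM of the members, 0.12 against 0.16 to 0.32 in the others. The part of these cells in the result was not tested.

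In 6W heart no member was called by edgeR (0.874% of all genes were, 0.598% higher and 0.276% lower), and DESeq2 called 1, lower. Before adjustment 4 of the 37 members were below 0.05, where 1786 of all 15557 genes were, a similar share. The median log2 fold change was -0.13 and 33 of the 37 values were below 0. Rsad2, for example, was at 502, 467, 572, 439 and 422 CPM in the TdTomato- and 502, 336, 537, 380.4 and 417 CPM in the TdTomato+ libraries of pairs 1, 2, 4, 5 and 6. Lgals3bp had the smallest adjusted p (0.115, -0.29 ± 0.09), with 317, 297, 357, 291 and 341 CPM against 216, 214, 269.9, 279.7 and 349.5 CPM, and only pair 6 was higher in TdTomato+ cells. Within the first run (pairs 1, 2 and 4) 1 member was called, lower, and within the second run (pairs 5 and 6) 0. In pairs 1, 2, 4, 5 and 6 the RNA integrity number was 7.6, 7.7, 7.4, 9.4 and 9.3 in the TdTomato+ libraries. It was 9.1, 9.2, 9, 9 and 9.7 in the TdTomato- libraries. The mean log2 CPM of the members differed by -0.14, -0.41, -0.02, 0.05 and -0.10 (TdTomato+ minus TdTomato-) in the same pairs.

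In 6W muscle 4 members were lower in TdTomato+ cells and none higher, where 3.53% of all genes were lower (5.23% called in all), and the median was -0.23. Isg15 was at 66.8, 54.7, 64.6 and 47.5 CPM in the TdTomato- and 44.2, 34, 30.5 and 28.9 CPM in the TdTomato+ libraries of pairs 2 to 5 (1.71-fold lower, log2 fold change -0.77 ± 0.14 (SE), adjusted p = 0.00175). Rtp4, a chaperone of membrane receptors with antiviral activity, was at 134, 140.1, 155 and 106 CPM against 98.1, 99.2, 96 and 79.4 CPM (1.43-fold lower, log2 fold change -0.51 ± 0.09 (SE), adjusted p = 0.000992). The fractions did not overlap for either gene. Psmb8 was 1.31-fold lower (adjusted p = 0.0392), and Oas1a was at 27.9, 44.9, 42.3 and 19.9 CPM against 15, 23.09, 23 and 13.5 CPM (1.77-fold lower, adjusted p = 0.0409). All 4 were lower in 4 of 4 pairs, and within each fraction pairs 3 and 4 were above pairs 2 and 5 for Psmb8 and Oas1a. Leaving out 1 pair left 2 calls each time, Isg15 and Rtp4, and the fit without the pair block called 0. The RNA integrity number was 7.9, 7.3, 6.8 and 7.3 in the TdTomato+ and 9.2, 10, 9.4 and 9.2 in the TdTomato- libraries, and with it as a covariate 2 members were called, both lower. The fit on the 6W muscle libraries alone called 12, all lower. How many of all genes that fit called is not given here, so the 12 is not a result about the members.

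**Figure D4:**
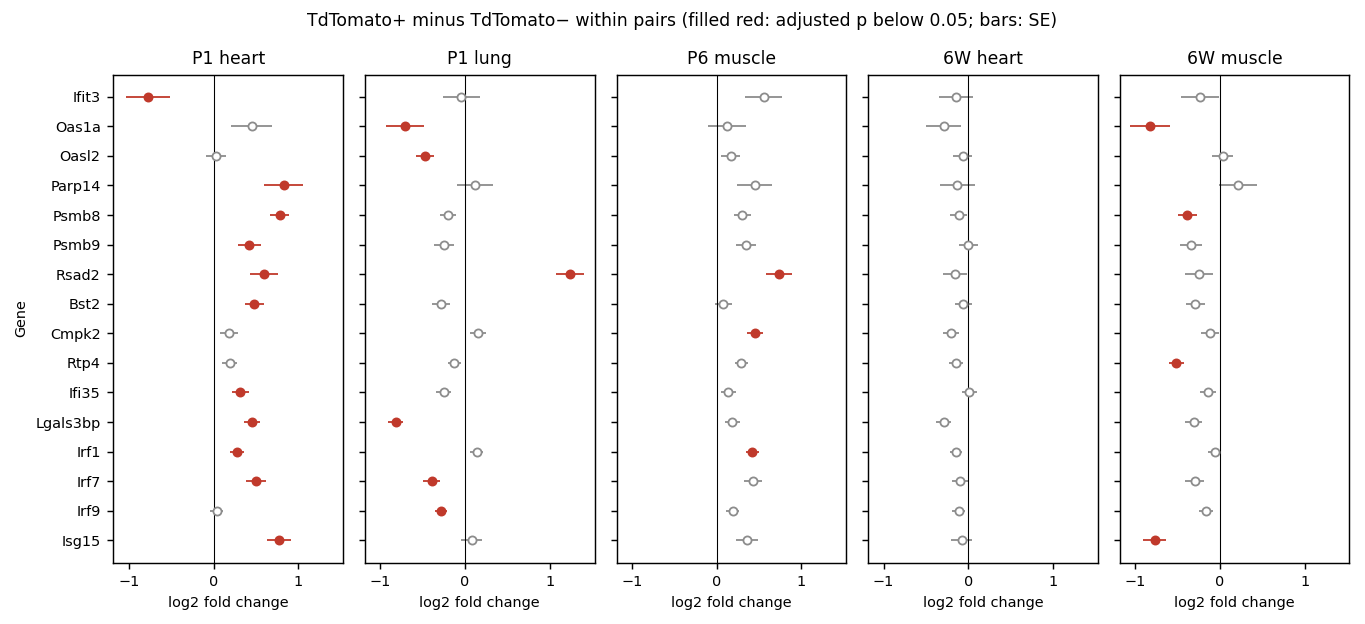
Log2 fold change of TdTomato+ over TdTomato- cells with its SE (horizontal axis) for members called in at least 1 fraction comparison, in the 5 combinations of tissue and age, with filled symbols where the adjusted p was below 0.05. Isg15 and Psmb8 lie right of 0 in P1 heart (0.77 and 0.78) and left of 0 in 6W muscle (-0.77 and -0.38).

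In all 5 combinations together, 16 members were called at least once and 21 never. The share of all genes called at least once was not computed, and it is at least the 14.7% of P1 heart. The mean effect over the 5 was called for 3 members, 8.11% of them, beside 8.39% of all genes (4.4% higher and 3.99% lower). That number is near the share of all genes and does not set the members apart. Rsad2 (0.43 ± 0.07) and Irf1 (0.13 ± 0.03) were higher and Lgals3bp (-0.16 ± 0.04) lower in TdTomato+ cells. Equality of the 5 effects was rejected for 17 members (16.8% of all genes). Without the pair block the mean effect was called for 0 members and equality was rejected for 1, and with RNA integrity as a covariate the mean effect was called for 0. Isg15 was 1.7-fold higher in P1 heart and 1.71-fold lower in 6W muscle. Irf7 was higher in P1 heart and lower in P1 lung. Lgals3bp was also higher in P1 heart and lower in P1 lung, and Rsad2 was higher in the 3 neonatal combinations.

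The effect of the fraction was itself compared between ages. From P1 to 6W heart it was lower for 7 members and higher for none, where 3.79% of all genes were lower (8.05% called in all). From P6 to 6W muscle it was lower for 9 members and higher for none, where 1.12% of all genes were lower (1.57% called in all). In heart the members were Psmb8 (-0.89 ± 0.15, adjusted p = 0.000455), Lgals3bp (-0.75 ± 0.13, 0.00058), Isg15 (-0.85 ± 0.19, 0.006), Irf1, Irf7, Bst2 and Rsad2. In muscle they were Rtp4 (-0.80 ± 0.12, adjusted p = 0.000862), Isg15 (-1.13 ± 0.19, 0.00326), Psmb8, Irf7, Irf1, Rsad2, Psmb9, Cmpk2 and Lgals3bp. For each of these members the fitted TdTomato+ effect was above 0 in the newborn tissue and below it at 6 weeks. None was called in opposite directions at the 2 ages of its tissue, so the difference was tested and a change of sign was not. Leaving out 1 pair gave 4 to 10 calls in heart (4 without P1 heart pair 3 and 4 without 6W heart pair 2) and 2 to 6 in muscle (2 without 6W muscle pair 3 and 2 without pair 4), and Isg15 kept its call in each case in both. Without the pair block 0 were called in either, with P1 heart pair 1 included 1 in heart, and with RNA integrity as a covariate 6 in heart and 5 in muscle. The muscle difference also spans both sequencing runs, which cannot be told apart from age. In heart the pericyte and fibroblast markers also moved with the fraction. At P1 their mean log2 CPM was -0.62, -0.56, 0.66 and 3.74 in TdTomato+ libraries of pairs 2 to 5, against 3.30, 4.01, 3.21 and 4.34. At 6W it was 6.05, 6.97, 5.62, 4.41 and 5.25 in pairs 1, 2, 4, 5 and 6, against 3.48, 3.75, 2.61, 4.47 and 4.46. It was thus lower at P1 and higher at 6W in all but pair 5, and its part in the result was not tested.

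**Figure D5:**
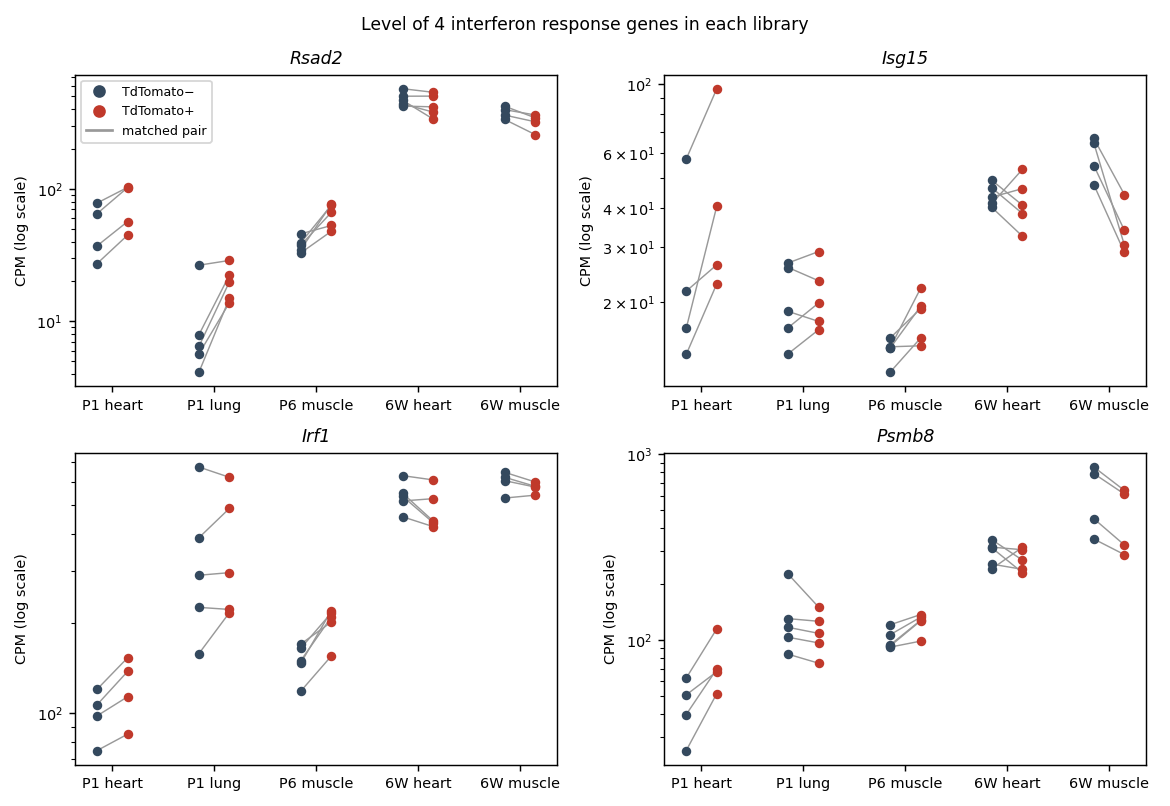
CPM on a log axis (vertical) of Rsad2, Isg15, Irf1 and Psmb8 in each library, by tissue, age and fraction, with lines joining matched pairs. Rsad2 lies between 4.11 and 103 CPM in newborn tissues and between 257 and 572 CPM at 6W, and its pair lines slope upward in P6 muscle and downward in 6W muscle.

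The tissue comparisons set organs of similar age side by side within a fraction. At P1, lung differed from heart in 16 members in TdTomato- cells, 11 higher and 5 lower in lung (36.9% of all genes were called), and in 14 in TdTomato+ cells, 5 higher and 9 lower (34.5%). Rsad2 was lower in lung in both, 5.11-fold in TdTomato- and 3.82-fold in TdTomato+ cells (adjusted p = 2.26e-05 and 2.36e-06), with 26.5, 5.66, 4.11, 7.89 and 6.45 CPM in lung and 64.9, 27.2, 37.1 and 78.1 CPM in heart TdTomato- libraries. Its neighbour Cmpk2 was lower in lung as well, at 43.6, 46.8, 44, 39.9 and 37.3 CPM against 107, 53.6, 55.6 and 104 CPM in TdTomato- cells (1.89-fold and 1.98-fold). Irf1 went the other way, at 672, 389, 227, 158 and 291 CPM in lung against 106, 97.7, 74.7 and 120.0 CPM in heart TdTomato- cells (3.48-fold higher, adjusted p = 1.08e-05, and 3.02-fold in TdTomato+ cells). The immunoproteasome genes were higher in lung TdTomato- cells, where Psmb8 was at 226, 117, 130.2, 103 and 83.7 CPM (2.98-fold) and Psmb9 at 82, 42.6, 56, 43.2 and 31.4 CPM (3.28-fold). Oasl2 was 2.18-fold higher there, against 88.2, 23.2, 23.7 and 57.1 CPM in heart. For these 3 genes the TdTomato- libraries of the 2 organs did not overlap, which was a condition for naming them. In these cells groups did not overlap for 6 of 36 members higher and 3 lower in lung, against 16.9% and 14.7% of all genes. The first count is near its share and the second is below it, so the absence of overlap does not set the members apart. Dhx58 was at 11.5, 12.4, 13.2, 11 and 12.8 CPM in lung and 8, 7.21, 6.9 and 7.02 CPM in heart TdTomato+ cells (1.68-fold higher). Zbp1 was at 11.6, 1.41, 2.7, 1.06 and 0.61 CPM in lung TdTomato- libraries and at 0 in 3 of 4 of heart. Lung pair 1 was the highest for Irf1 and Zbp1 in both fractions. All 8 lung epithelium markers tested and 16 of 17 leukocyte markers were higher in the lung TdTomato- libraries, and the run sheets list P1 heart and P1 lung in different batches of the first run, which cannot be told apart from the organ.

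At 6W, heart differed from muscle in 9 of 36 members in TdTomato- cells, 2 higher and 7 lower in heart, where 21.9% of all genes were called. In TdTomato+ cells heart differed in 4 of 36, all lower, where 15% of all genes were called. The first total is near the share of all genes and the second is below it, so neither sets the members apart. Oas2 was higher in heart, with 91, 96.2, 125, 86.9 and 129.6 CPM against 28.5, 39.8, 54.9 and 33.7 CPM in TdTomato- cells (2.69-fold, adjusted p = 0.031). No library of one tissue reached the other, which was a condition for naming a member here. In these cells groups did not overlap for 2 of 36 members higher and 4 lower in heart, against 7.44% and 8.26% of all genes. These counts are near the shares of all genes, so the absence of overlap does not set the members apart either. The Oas2 call was lost in 5 of 9 fits that left out 1 library (6W heart pair 4 or 6, or 6W muscle pair 2, 3 or 5), with an adjusted p of up to 0.0891, and with DESeq2 (adjusted p = 0.112). Samhd1 was lower in heart in both fractions, 1.82-fold in TdTomato- cells (124, 118, 123, 112 and 88.6 CPM against 182, 211, 215 and 213.002 CPM, adjusted p = 0.00054) and 2.07-fold in TdTomato+ cells (adjusted p = 3.07e-05). Psmb8 (313, 346, 316, 256 and 242 CPM in heart, 2.07-fold) was lower in heart TdTomato- cells, as was Parp9 (62.4, 87.3, 92.5, 84.6 and 95.6 CPM against 98.3, 132, 108 and 108 CPM, 1.32-fold). Within the second run, where both tissues have libraries, 2 members were called in TdTomato- cells, Oas2 higher and Samhd1 lower in heart, and 3 in TdTomato+ cells, 2 higher and 1 lower. The 6W heart libraries of that run are pairs 5 and 6, whose labels conflict on the tissue.

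Genes upstream and beside the members were described from lists of the same pathway. Of 20 receptor and signalling genes, 10 rose and 1 fell with age in TdTomato- heart and 9 rose and 4 fell in TdTomato- muscle. In TdTomato- heart the gamma receptor chain Ifngr1 rose by 1.90 ± 0.12, the shared chain Il10rb by 1.47 ± 0.09 and the type I receptor chain Ifnar2 by 1.38 ± 0.09 on the log2 scale (adjusted p = 9.39e-12, 1.22e-11 and 1.28e-11). In contrast, Ifngr2, the partner chain of Ifngr1, fell by 0.68 ± 0.12 in TdTomato- heart and by 0.96 ± 0.12 in TdTomato- muscle (adjusted p = 3.69e-05 and 8.27e-07). Ifnar1 was not called in TdTomato- heart (-0.07 ± 0.13, adjusted p = 0.713) and fell by 0.86 ± 0.14 in TdTomato- muscle (adjusted p = 2.26e-05). Of 13 MHC class I presentation genes in the table, 13 rose in TdTomato- heart, 11 in TdTomato+ heart and 13 in each muscle fraction. Between fractions this list was 6 higher in P1 heart, 5 lower in P1 lung, 2 higher in P6 muscle, 0 called in 6W heart and 2 lower in 6W muscle. Of the other interferon-induced genes, 43 of 51 tested rose and 2 fell with age in TdTomato- heart and 46 rose and 1 fell in TdTomato- muscle. Cxcl9, a chemokine induced by interferon gamma, rose in all 4 age comparisons, by 3.23 to 4.44 on the log2 scale. Transcripts of 10 interferon genes listed were summarised per library but are not reported here. Il15, a cytokine that interferons induce, rose in all 4 age comparisons, by 1.37 ± 0.19 in TdTomato- heart and 1.32 ± 0.18 in TdTomato- muscle on the log2 scale.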

How the data were processed

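The series holds 48 libraries of sorted endothelial RNA, of which 46 were used. The deposited values are raw read counts of each gene (STAR and featureCounts with mm10; versions are absent from the submitters' processing notes), with the authors' log2 fold changes and false discovery rates, an adjusted p-value, from edgeR. The RNA integrity number, a quality score, is listed per library in the deposited run sheets, per the file headers. The run sheets name a low-input cDNA kit while the labels name an RNA capture kit, so the kit is not settled, and neither states whether counting used strand. No molecular identifiers are named, so count floors cover counting error only. The sheets also hold 2 rows of other samples, which were not used.

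Counts were scaled by TMM in edgeR 4.0.16 (R 4.3.3, limma 3.58.1), and filterByExpr kept 15557 genes. Fractions were tested by a quasi-likelihood model of 46 libraries with the matched pair as a block and 1 TdTomato+ effect per tissue and age. Ages and tissues were tested within a fraction over 23 libraries with no block (14802 genes in TdTomato-, 14966 in TdTomato+ cells). P-values were adjusted over all genes. The SE was derived from the fold change and its F statistic, and log2 CPM used a prior count of 2. Pairing comes from the labels: deviations of partners from their group means correlated above 0.1 in 22 of 23 pairs (median 0.389, lowest -0.0123, over 7729 genes). No 2 libraries held identical values. The scripts were tested on simulated counts with known changes.

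Members and lists were chosen with earlier results of these data known. Named members were, per comparison, up to 6 called members, by smallest p for fractions and, for ages and tissues, by largest fold among those at 10 CPM or more in a group whose groups do not overlap. Alternatives were DESeq2 1.42.0, its size factors, no filter, no pair block, a block by replicate number for ages and tissues, single sequencing runs, own libraries only, pair 1 of P1 heart included, and each pair or library left out. RNA integrity as a covariate was added after seeing the data.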

Additional observations from a re-analysis of the deposited data

Results flagged for a closer look

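The fraction effect differed between ages for 16 results, in a test of the difference itself (edgeR, adjusted over all genes). From P1 to 6W heart the difference of the log2 effects was -0.89 for Psmb8, -0.85 for Isg15, -0.75 for Lgals3bp, -0.75 for Rsad2, -0.59 for Irf7, -0.54 for Bst2 and -0.43 for Irf1. From P6 to 6W muscle it was -1.13 for Isg15, -0.98 for Rsad2, -0.80 for Rtp4, -0.72 for Irf7, -0.69 for Psmb9, -0.68 for Psmb8, -0.56 for Cmpk2, -0.50 for Lgals3bp and -0.48 for Irf1. In muscle the ages were sequenced in different runs, and run and age cannot be told apart. In heart the pericyte and fibroblast markers were lower in TdTomato+ cells at P1 and higher at 6W in all but pair 5. Their part in the result was not tested.

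Single libraries stood apart from the rest of their group for 9 of the 240 groups of values tested (3.75%, where chance gives about 1 in 20). In P6 muscle, Irf1 was lowest in TdTomato+ pair 3 at 7.28 log2 CPM (others 7.66 to 7.79), and Psmb8 was lowest in TdTomato+ pair 2 at 6.62 (6.99 to 7.1). Also in P6 muscle, Bst2 was lowest in TdTomato- pair 5 at 7.13 (7.48 to 7.54), and Oas2 was at 0 counts in TdTomato- pair 3, or -3.45 log2 CPM with the prior count (0.16 to 1.2). In 6W tissue, Rtp4 was lowest in TdTomato+ muscle pair 5 at 6.31 (6.59 to 6.63), Samhd1 in TdTomato- muscle pair 2 at 7.51 (7.72 to 7.75), and Parp9 in TdTomato- heart pair 1 at 5.97 (6.4 to 6.58). In P1 heart, Zbp1 was above 0 in TdTomato- pair 2 (-2.94 log2 CPM) and in TdTomato+ pair 5 (-2.22) while the other libraries held no count.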

How the results depend on the processing

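For the age comparisons, without 1 library each, 33 to 35 members were called in TdTomato- heart, 33 to 35 in TdTomato- muscle, 24 to 31 in TdTomato+ heart and 30 to 32 in TdTomato+ muscle. The TdTomato+ heart count was 13 with P1 heart pair 1 included and 18 with a replicate block by number, which pairs no animals by the labels (numbers of different tissues or ages correlated above 0.1 in 7 of 20 cases). Counts for 6W heart against muscle were 5 to 9 in TdTomato- and 2 to 5 in TdTomato+ cells without 1 library, 2 in TdTomato- cells with the block by number and 2 within the second run. For P1 lung against heart they were 14 to 18 and 11 to 16, and 7 in TdTomato+ cells with pair 1 included. The fraction results depended on the pairing. With no replicate block the counts were 0 in P1 heart, 1 in P1 lung, 0 in P6 muscle, 0 in 6W muscle, 0 for the mean effect, 1 for equality and 0 for either age difference of the effect. DESeq2 called 12 in P1 lung, 6 in P6 muscle and 1 in 6W heart. Fits on own libraries only called 2 in P1 heart, 5 in P6 muscle and 12 in 6W muscle. RNA integrity as a covariate left 3 in P1 heart, 2 in 6W muscle, 0 for the mean effect and 5 for the muscle age difference. With P1 heart pair 1 included 7 were called in P1 heart and 1 for the heart age difference, and the first run alone called 1 in 6W heart. Leaving out 1 pair gave 3 to 15 in P1 heart, 3 to 9 in P1 lung, 1 to 2 in P6 muscle, 0 to 1 in 6W heart, 2 to 2 in 6W muscle, 3 to 5 for the mean, 13 to 18 for equality, 4 to 10 for the heart and 2 to 6 for the muscle age difference. Signs reversed only with pair 1 included: Irf7 -0.22, Bst2 -0.25 and Lgals3bp -0.27 in P1 heart, Irf7 0.12 and Bst2 0.19 for the heart age difference, and Oasl2 -0.38 for age in TdTomato+ heart. The cause was not tested. Counts of members under a few CPM, as for Mx1, Zbp1 and newborn Oas2, limit their folds. Shares of all genes called are not given for these alternative settings, so the numbers of members called cannot be set against such shares.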

Other observations

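Adult muscle pairs 3 and 4 stood above pairs 2 and 5 in both fractions for several members and for some other genes that interferon gamma is known to induce, which were looked up after the split was noticed in the members. Among members, Zbp1 was at 3.65, 34.3, 33.7 and 1.27 CPM in the TdTomato- libraries of pairs 2, 3, 4 and 5, Psmb9 at 161, 381, 417 and 127 CPM and Gbp3 at 110.4, 264, 276 and 129 CPM. Pairs 3 and 4 were above pairs 2 and 5 in the TdTomato+ libraries too, with Psmb9 at 131, 305, 295 and 106 CPM and Gbp3 at 98.3, 220.0, 242 and 104 CPM. Ciita, the activator of MHC class II genes, was at 1.08, 13.3, 11.9 and 1.37 CPM in TdTomato- and 2.3, 20.7, 16.2 and 0 CPM in TdTomato+ cells. Its target Cd74, the MHC class II invariant chain, was at 59.6, 880.2, 699 and 13.8 CPM in TdTomato- and 35.9, 1339, 1414 and 2.37 CPM in TdTomato+ cells. The MHC class I gene H2-K1 was at 2728, 7252, 6883 and 2498 CPM in TdTomato- cells, and the peptide transporter Tap1 at 132, 659, 546 and 182 CPM. Cxcl9 did not follow the split in TdTomato- cells, where pair 4 was below pair 2, at 149, 165, 140.3 and 52.4 CPM, and stood at 125, 167, 134 and 53.3 CPM in TdTomato+ cells. Ptprc was at 1.71, 6.68, 1.37 and 0.0527 CPM in TdTomato- and 0.848, 6.95, 3.38 and 2.66 CPM in TdTomato+ cells. By contrast Rsad2 (361, 397, 335 and 422 CPM) and Ifit1 (103, 89.7, 94.9 and 106 CPM in TdTomato- cells) did not separate the same pairs. The labels do not set these pairs apart, so no comparison was made.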
